A study of Mus musculus with 12 samples.

Results

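Chemokines are small secreted proteins that steer the migration of cells through receptors on their surface, and interleukin 6 is a cytokine released in injured muscle that acts through a receptor with the shared chain gp130. The genes followed here are 9 chemokines (Ccl2, Ccl7, Ccl8, Ccl11, Cxcl1, Cxcl5, Cxcl10, Cxcl12 and Cxcl14) and Il6, which are 10 of the 30154 genes in the deposited tables. They were chosen by symbol after earlier results of the same data were known, and the choice rested on Ccl2 and Ccl7 being lower in knockout cells at day 0 and not after injury. Differences between the genotypes are therefore given below as descriptions without a test, and so are all changes of Ccl2 and Ccl7 that involve the day 0 libraries. All 10 genes passed the filter on low counts that left 15890 genes for testing.

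RNA was sequenced from muscle stem cells that were sorted by flow cytometry out of the quadriceps, gastrocnemius and tibialis anterior muscles of the hind limbs of C57BL/6J mice aged 2 to 3 months. The wild-type mice and the Sestrin1,2 knockout mice, which lack 2 stress-induced proteins that restrain the growth kinase complex mTORC1, were each sampled before injury (day 0) and 7 and 21 days after it. Each of the 6 groups holds 2 libraries. The labels give neither the kind of injury nor the sex of the mice, the sorting gate or a batch, and do not say whether the 2 libraries of a group came from separate animals, so the p-values measure only the spread between these libraries.

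Muscle stem cells lie quiescent under the basal lamina of the muscle fibre and are activated by injury. In injured muscle the CC chemokines of this group are known to attract monocytes and eosinophils, the CXC chemokines with a Glu-Leu-Arg motif (Cxcl1 and Cxcl5) attract neutrophils, and Cxcl10 attracts activated T cells. Cxcl12 retains and guides progenitor cells that carry Cxcr4. Stromal cells, macrophages and muscle cells can all produce several of these proteins.

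The libraries held between 28396862 and 38950614 estimated counts, of which the 10 genes together made up 0.0433% to 0.0789%. The targeted gene Sesn2 was at 75.1 and 84.3 CPM (counts relative to the scaled library size) before injury in wild type against 5.47 and 7.03 in knockout, and 44.9 and 47.4 against 2.36 and 1.92 at day 7. For day 21, the pair labelled wild type had 8.92 and 82.1 CPM and the pair labelled knockout 9.86 and 108, so Sesn2 went against the label of wild-type replicate 1 and knockout replicate 2. Sesn1, the other targeted gene, had 70.3 and 68.6 CPM in wild type against 46.0 and 45.8 in knockout before injury, 84.0 and 67.9 against 28.4 and 22.4 at day 7, and 43.7 and 78.3 against 41.7 and 67.2 by label at day 21. Values of day 21 are therefore given by label, and results that use them also without these 2 libraries.

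The stem cell label was checked against markers. All 10 stem cell markers were detected, with Pax7 at means of 12 to 47.9 CPM over the 6 groups. Markers of fibro-adipogenic progenitors, the connective tissue cells of muscle, were detected too: their 12 genes summed to 14420 to 15430 CPM at day 0, 5614 to 7142 at day 7 and 11110 to 20050 at day 21, with none at 0. The sum is mostly Dcn and Gsn, which went from means of 7380 and 7210 CPM to 2610 and 1620 in wild type by day 7. Over the list the markers moved both ways by day 7: 5 rose and 4 fell in wild type, beside 25.8% and 21.2% of all genes, and 6 rose and 4 fell in knockout, beside 24.7% and 22.2%. Among those with higher means at day 7 in wild type were Pdgfra (19.7 to 38.1 CPM), Lum (135 to 353) and Mfap5 (83.5 to 573). The 6 Schwann cell markers summed to 2666 to 3155 CPM at day 0 and 312 to 471 at day 7. Of the 8 neutrophil markers, 7 stayed under 1 CPM in every library, and 1 of these was at 0 throughout. In bulk RNA, fewer cells of a type and less RNA per cell cannot be told apart.

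The 4 CC chemokine genes lie close together on chromosome 11. On GRCm38 with the GENCODE M21 annotation, Ccl2 (chr11:82035571-82037453), Ccl7 (chr11:82045712-82047525), Ccl11 (chr11:82057823-82062955) and Ccl8 (chr11:82115185-82116799) all lie on the plus strand within 81.2 kb, with Ccl12 as the other gene between them. Cxcl1 (chr5:90891241-90893115), Cxcl5 (chr5:90759360-90761624) and Cxcl10 (chr5:92346638-92348889, minus strand) lie on chromosome 5, as does Il6 (chr5:30013114-30019981). Cxcl12 is at chr6:117168535-117181367 and Cxcl14 at chr13:56288643-56296551 on the minus strand. None of the 10 genes has another gene with at least 90% identity over at least 80% of its transcript. The exons of Cxcl10 share 266 bases with those of Art3 on the opposite strand, and since the kit does not mark strand, reads from these bases cannot be told apart between the genes.

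Sequence upstream of the transcription start was held for 6 of the 10 genes (Il6, Cxcl1, Cxcl10, Cxcl12, Ccl8 and Cxcl14). The 250 bases before the start are printed for the member that rose most by day 7 (Ccl8), the one that fell most by day 7 (Cxcl14), the interferon-responsive chemokine (Cxcl10) and the cytokine (Il6). The sequences are from RefSeq, build GRCm38.p6, at chr11:82114935-82115184 (plus strand), chr13:56296552-56296801 (minus strand), chr5:92348890-92349139 (minus strand) and chr5:30012864-30013113 (plus strand). They are written 5′ to 3′ along the gene, and capitals mark matches to the motifs that are described after them.
Ccl8: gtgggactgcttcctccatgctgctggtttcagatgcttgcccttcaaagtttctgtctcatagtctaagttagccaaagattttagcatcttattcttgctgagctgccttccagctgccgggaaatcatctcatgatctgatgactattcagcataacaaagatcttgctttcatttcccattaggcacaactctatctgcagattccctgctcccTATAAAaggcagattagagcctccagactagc
Cxcl14: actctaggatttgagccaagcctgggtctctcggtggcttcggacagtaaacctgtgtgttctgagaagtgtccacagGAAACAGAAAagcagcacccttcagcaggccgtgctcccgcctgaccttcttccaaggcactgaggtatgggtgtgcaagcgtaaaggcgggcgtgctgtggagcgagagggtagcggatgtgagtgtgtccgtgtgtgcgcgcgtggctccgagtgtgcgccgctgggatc
Cxcl10: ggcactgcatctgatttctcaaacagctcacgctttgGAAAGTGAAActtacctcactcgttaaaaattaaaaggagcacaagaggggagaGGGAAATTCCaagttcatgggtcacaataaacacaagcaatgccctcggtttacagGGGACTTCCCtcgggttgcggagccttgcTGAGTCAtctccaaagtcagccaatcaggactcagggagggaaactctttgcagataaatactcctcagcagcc
Il6: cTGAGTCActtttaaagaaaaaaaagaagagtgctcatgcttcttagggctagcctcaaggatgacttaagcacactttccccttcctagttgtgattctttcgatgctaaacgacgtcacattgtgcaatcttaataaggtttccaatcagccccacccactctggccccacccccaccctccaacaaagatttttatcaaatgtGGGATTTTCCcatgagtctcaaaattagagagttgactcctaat

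Both strands were searched for 5 motifs: the NF-kB consensus, the AP-1 motif TGANTCA, the core of the interferon-stimulated response element (GAAA, any 2 bases, GAAA), the TATA box TATAAA and the GC box GGGCGG. NF-kB, AP-1 and the interferon response factors are transcription factors that inflammatory signals activate. A match to the NF-kB consensus lay in 3 of the 6 windows (Il6, Cxcl1 and Cxcl10, which has 2 matches), against 3.90% of 32817 windows of the same length from all promoters. The matches of Cxcl1 on its 2 strands overlap and are 1 stretch of sequence. The AP-1 motif lay in 2 windows (Il6 and Cxcl10), against 6.75% of all windows, and the interferon response core in 2 (Cxcl10 and Cxcl14), against 2.97%. The TATA box lay in the window of Ccl8, 32 to 27 bases before the start, against 12.4% of all windows, and the GC box in that of Cxcl12, against 32.7%. A match is only a match of letters.

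Cxcl1 had the highest mean over the 4 libraries of each day on the scale of TPM, which corrects for transcript length. This mean was 300.1 TPM at day 0, 242 at day 7 and 448 at day 21. Its range was apart from all others at days 0 and 21, but at day 7 that of Ccl8 spanned it, and in knockout Ccl8 was at 242 and 297 TPM against 232 and 255 for Cxcl1. Behind it at day 0 came Cxcl12 (98.1 TPM), Cxcl14 (81.7), Il6 (74.7), Ccl2 (73.3), Cxcl10 (60.3), Ccl11 (44.0) and Ccl7 (36.4), and each of these overlapped its neighbour in the order. Ccl8 at 2.13 TPM and Cxcl5 at 0.409 TPM were lowest and apart from the rest. At day 7 Ccl8 had moved up to rank 3 with a mean of 157 TPM and a range of 43.1 to 297, while Cxcl14 and Ccl11 had moved down to 24.3 and 21.8 TPM. At day 21 Ccl2 was second at 172 TPM, and Ccl8 was back at 7.96 TPM, below all but Cxcl5.

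**Figure D1:**
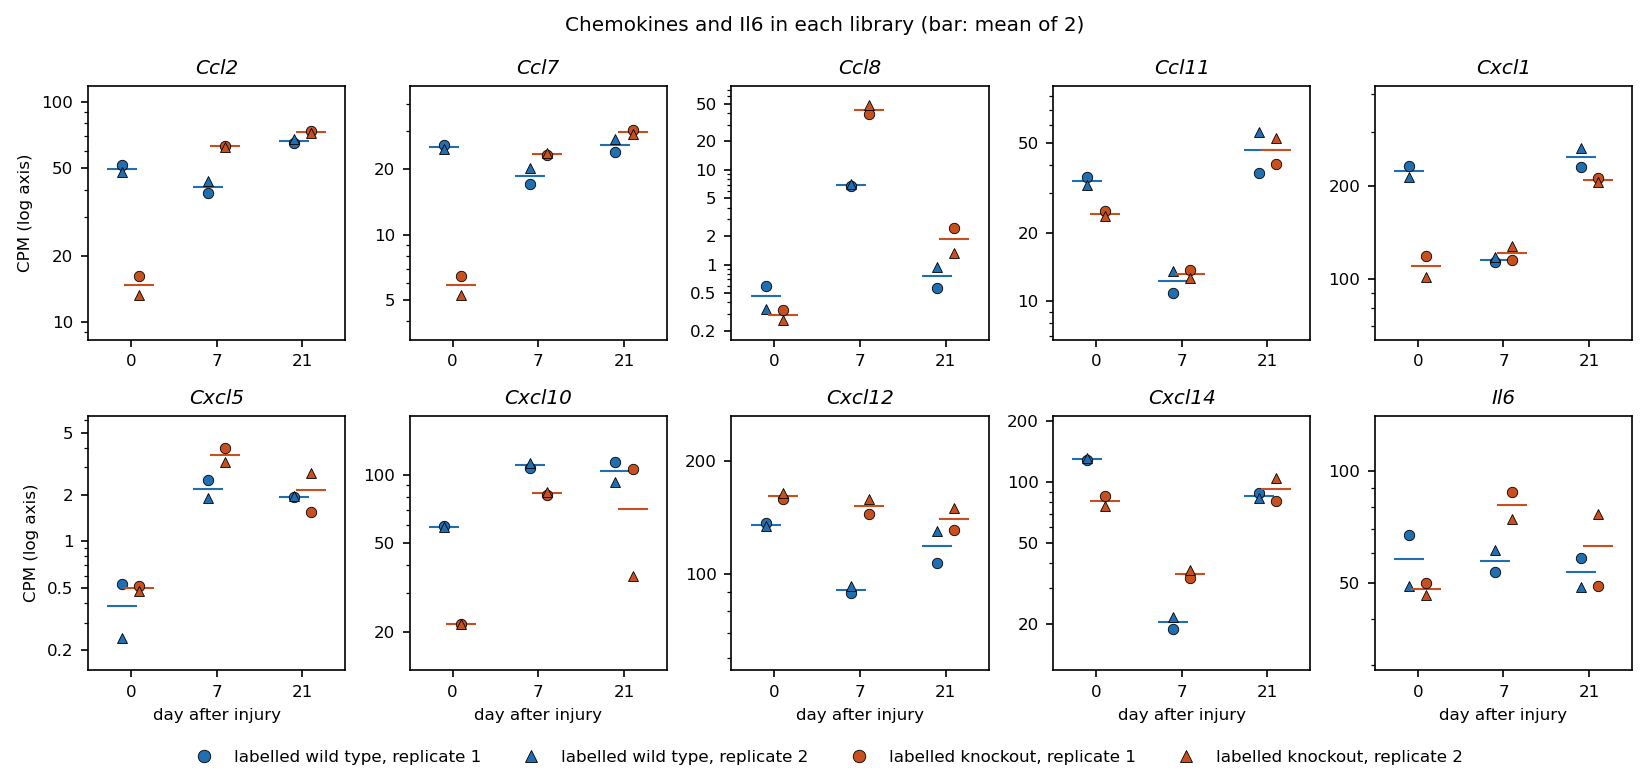
Each panel shows 1 gene, with the day after injury on the horizontal axis and CPM on a logarithmic vertical axis. Points are single libraries by label (circle replicate 1, triangle replicate 2, blue wild type, orange knockout) and bars are means of 2. Ccl2 and Ccl7 are low in the knockout libraries of day 0, Ccl8 peaks at day 7 and Cxcl14 and Ccl11 dip at day 7.

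In both genotypes, Ccl8 and Cxcl5 rose by day 7 and Ccl11 and Cxcl14 fell. In wild type, 6 of the 8 genes that could be tested changed against day 0, 2 upward and 4 downward, where 47.0% of all genes tested were called, 25.8% as higher and 21.2% as lower. For knockout, 6 of the 8 changed, 4 upward and 2 downward, where 46.9% of all genes were called, 24.7% as higher and 22.2% as lower. The median log2 fold change of the 8 genes was -0.30 in wild type and 0.45 in knockout, beside 0.06 and 0.03 over all genes. These shares of called genes are high throughout the transcriptome, so that the counts by themselves do not set the group apart. Tests are quasi-likelihood F tests of edgeR, and a gene is called where the p-value adjusted over all genes by the Benjamini-Hochberg method is under 0.05.

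**Figure D2:**
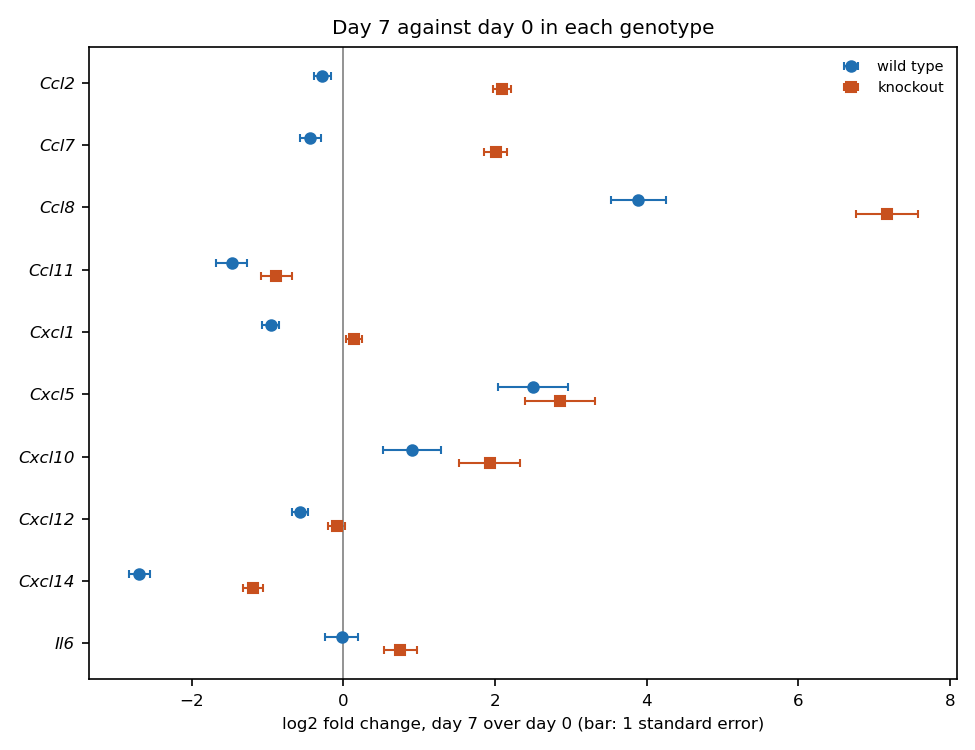
Log2 fold change from day 0 to day 7 for each gene on the horizontal axis, in wild type (blue circles) and knockout (orange squares), with bars of 1 standard error. Ccl8 lies farthest to the right in both genotypes, at 3.89 and 7.16, and Cxcl14 farthest to the left, at -2.69 and -1.19.

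Ccl2, the main chemokine for monocytes that carry Ccr2, measured 51.7 and 48.0 CPM in wild-type cells before injury, against 16.2 and 13.3 in knockout cells. The day 7 values were 38.6 and 43.8 CPM in wild type against 63.4 and 62.8 in knockout. The order of the genotypes was thus opposite on the 2 days, with no overlap on either. The pair labelled wild type at day 21 had 65.5 and 67.9 CPM and the pair labelled knockout 74.0 and 72.3. All 4 libraries of day 21 lay above all of day 7. Ccl2 rose from day 7 to day 21 by 0.45 ± 0.08 (standard error, as for all log2 fold changes here) on the log2 scale (adjusted p = 0.000653), and by 0.50 (adjusted p = 0.00177) without the 2 libraries that Sesn2 put against their label.

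Ccl7, which attracts monocytes through Ccr2 and other receptors, followed Ccl2 at a lower level. It was at 25.9 and 24.8 CPM in wild type and at 6.45 and 5.27 in knockout at day 0, and at 17.2 and 20.3 against 23.3 and 23.9 at day 7. The knockout libraries were again the low pair at day 0 and the high pair at day 7. Labelled wild type, the day 21 libraries held 24.2 and 27.7 CPM, and labelled knockout 30.3 and 29.1. From day 7 to day 21 Ccl7 rose by 0.40 ± 0.10 on the log2 scale (adjusted p = 0.00527), and by 0.48 (adjusted p = 0.00571) without the 2 libraries. The ratio of Ccl2 to Ccl7 in CPM stayed between 1.93 and 2.72 in all 12 libraries, and their log2 CPM correlated at r = 0.981 over these libraries, which share depth and group. The change from day 0 to day 7, as a description, was -0.28 ± 0.11 in wild type and 2.09 ± 0.12 in knockout for Ccl2. For Ccl7 it was -0.44 ± 0.14 in wild type and 2.01 ± 0.15 in knockout.

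Ccl8, a further chemokine for monocytes, was nearly absent before injury and had the largest change of the 10 genes. Its wild-type libraries were at 0.594 and 0.343 CPM at day 0, from 19 and 13 counts, and its knockout libraries at 0.334 and 0.258, from 11 and 7 counts. At day 7 it reached 6.77 and 7.03 CPM in wild type and 38.6 and 47.9 in knockout. Every library of day 7 lay above every library of day 0, and the genotypes did not overlap at day 7. The rise was 3.89 ± 0.37 on the log2 scale in wild type (adjusted p = 2.03e-05), or 14.8-fold, and 7.16 ± 0.41 in knockout (adjusted p = 7.23e-07), or 143-fold. By day 21 Ccl8 was down to 0.561 and 0.954 CPM (labelled wild type) and 2.44 and 1.32 (labelled knockout). It fell from day 7 to day 21 by 3.86 ± 0.24 on the log2 scale (adjusted p = 9.49e-07), and by 3.48 (adjusted p = 2.54e-06) without the 2 libraries. Against day 0 it was still higher at day 21, by 1.67 ± 0.30 (adjusted p = 0.00115) and by 2.03 (adjusted p = 0.000263) without the 2 libraries, although the libraries of these days overlapped. On the authors' batch-corrected log2 values the wild-type rise was 2.55, that of knockout 4.93 and the difference of day 21 from day 0 0.80, and all 3 passed the test in limma.

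Macrophages are a known source of Ccl8, so their markers are given beside it. Of the macrophage and monocyte list, 12 of 13 genes were in the tables, none of them at 0 throughout, and their sum was 1777 to 2945 CPM at day 0 and 300 to 484 at day 7, of which Lyz2 made up the largest part. In wild type, 10 of the 12 rose by day 7 and 1 fell, beside 25.8% and 21.2% of all genes, and in knockout 8 rose and 1 fell, beside 24.7% and 22.2%. Ptprc, C1qa and Tyrobp of this list averaged at most 0.138 CPM at day 0 in each genotype. They passed the filter through later groups alone, so part of the count of rises follows from the filter. Without Lyz2, a choice made after its values were seen, the other 11 genes summed to 11.5 to 14.3 CPM at day 0. At day 7 they summed to 87.8 and 153 CPM in wild type and to 116 and 39.3 in knockout, and at day 21 to between 16.5 and 45.1. The knockout library of day 7 with the lowest sum, 39.3 CPM, had the highest Ccl8 of all libraries, 47.9 CPM, and the wild-type library with the highest sum had 7.03 CPM. The part of macrophage content in the rise from day 0 to day 7 was not tested.

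**Figure D3:**
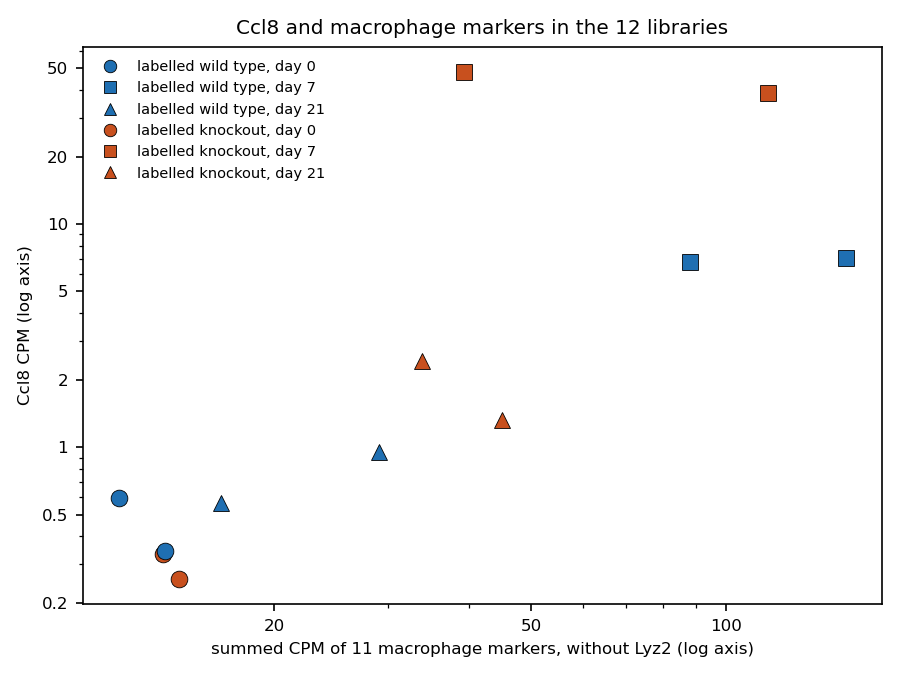
Each point is 1 library, with the summed CPM of 11 macrophage markers on the horizontal and Ccl8 CPM on the vertical axis, both logarithmic; colour gives the labelled genotype and shape the day. All libraries of day 7 lie above 6 CPM of Ccl8, and both knockout libraries, at marker sums of 116 and 39.3 CPM, lie above both wild-type ones, at 87.8 and 153.

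Ccl11, or eotaxin, which attracts eosinophils through Ccr3, went the other way at day 7. Before injury it measured 35.4 and 32.5 CPM in wild type against 24.9 and 23.9 in knockout, and at day 7 10.8 and 13.7 against 13.7 and 12.7. All libraries of day 7 were below all of day 0. The fall was 1.47 ± 0.20 on the log2 scale in wild type (log2 fold change -1.47, adjusted p = 0.000246) and 0.89 ± 0.20 in knockout (log2 fold change -0.89, adjusted p = 0.00476). By day 21 it stood at 36.9 and 55.6 CPM (labelled wild type) and 40.4 and 52.3 (labelled knockout), all above day 0. The rise from day 7 was 1.87 ± 0.15 (adjusted p = 3.45e-06), and from day 0 it was 0.69 ± 0.14 (adjusted p = 0.00275). Of the markers of fibro-adipogenic progenitors given above, the sum was also lowest at day 7 while single markers moved both ways, and their part in this fall was not tested.

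Cxcl1, a ligand of the neutrophil receptor Cxcr2, fell by day 7 in wild type. It was at 233 and 215 CPM in wild type and at 118 and 101 in knockout at day 0, and at 113 and 117 against 115 and 127 at day 7. The wild-type libraries thus came down to the level that the knockout libraries already had before injury. The change was -0.96 ± 0.11 on the log2 scale in wild type (adjusted p = 6.37e-05), and 0.14 ± 0.11 in knockout, which did not pass the test (adjusted p = 0.304). The day 21 libraries held 232 and 266 CPM where labelled wild type and 214 and 207 where labelled knockout, all above day 7. Cxcl1 rose from day 7 to day 21 by 0.95 ± 0.08 (adjusted p = 3.98e-06), and it was higher at day 21 than at day 0 by 0.55 ± 0.08 (adjusted p = 0.000264), with overlap between the libraries of these days.

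Cxcl5, the other ligand of Cxcr2 in the group, had the lowest mean TPM of the 10 genes on each day. Before injury the wild-type libraries had 0.531 and 0.237 CPM of it, from 17.1 and 8.81 estimated counts, and the knockout libraries 0.517 and 0.479. By day 7 these were 2.46 and 1.89 CPM against 3.98 and 3.25. It rose by 2.51 ± 0.46 on the log2 scale in wild type (adjusted p = 0.0014) and by 2.85 ± 0.46 in knockout (adjusted p = 0.000567), and all libraries of day 7 lay above those of day 0. The day 21 values of 1.92 and 1.97 CPM (labelled wild type) and 1.55 and 2.74 (labelled knockout) were 2.22 ± 0.33 above day 0 (adjusted p = 0.000357). The sizes of these rises depend on the processing at such low counts: limma on the authors' batch-corrected log2 values gave 0.78 in wild type, 1.07 in knockout and 0.72 at day 21, and each still passed the test. They did not pass the test against day 7 (-0.46 ± 0.29, adjusted p = 0.213).

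Cxcl10, an interferon-induced ligand of Cxcr3, a chemokine receptor of activated T cells, measured 59.2 and 58.6 CPM in wild type and 21.8 in each knockout library before injury. Its day 7 values were 107 and 114 CPM in wild type against 81.8 and 84.1 in knockout, so that both genotypes were above their own day 0. The rise was 1.93 ± 0.40 on the log2 scale in knockout (adjusted p = 0.00401). In wild type the value was 0.91 ± 0.38 (adjusted p = 0.0845), which misses the threshold. With all libraries it passed in DESeq2 (0.87, adjusted p = 0.0231) and in limma on log2(TPM + 1) (1.12, adjusted p = 0.024). After 21 days the pair labelled wild type had 114 and 93.6 CPM and the pair labelled knockout 106 and 35.8. The low library, knockout replicate 2, is 1 of the 2 whose Sesn2 went against the label. Without these 2 libraries the wild-type value of day 7 was 0.89 with an adjusted p of 9.73e-06, and it also passed without either library labelled knockout at day 21 (adjusted p = 0.00016 without replicate 1 and 0.000156 without replicate 2). Cxcl10 was higher at day 21 than at day 0 by 1.26 ± 0.28 (adjusted p = 0.00588), and by 0.77 without knockout replicate 1 of day 21, where it still passed. Against day 7 the value was -0.16 ± 0.27 (adjusted p = 0.651), and its sign turned with the libraries used. It was 0.08 without the 2 libraries (adjusted p = 0.303), 0.16 without knockout replicate 2 of day 21 and -0.63 without knockout replicate 1 (adjusted p = 0.00024). Art3, whose exons overlap those of Cxcl10, went down from means of 502 and 572 CPM at day 0 to 116 and 111 at day 7 in wild type and knockout, opposite in direction to Cxcl10.

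Cxcl12, the ligand of Cxcr4 that stromal cells make, measured 137 and 134 CPM in wild type against 158 and 164 in knockout before injury, and 89.3 and 93.2 CPM against 145 and 158 at day 7. The wild-type libraries of day 7 were the lowest of all 12. The change was -0.57 ± 0.11 on the log2 scale in wild type (adjusted p = 0.00183), and -0.09 ± 0.11 in knockout (adjusted p = 0.543). On the TPM scale with limma, the wild-type value was -0.33 and missed the threshold (adjusted p = 0.0684 with a pseudocount of 1). By day 21 the values were 108 and 131 CPM (labelled wild type) and 131 and 150.1 (labelled knockout). Neither the comparison with day 7 (0.14 ± 0.08, adjusted p = 0.155) nor that with day 0 (-0.19 ± 0.08, adjusted p = 0.0675) passed. Without the 2 libraries both passed, at 0.17 (adjusted p = 0.0352) and -0.18 (adjusted p = 0.0436). With all libraries, the comparison with day 0 also passed in DESeq2 (-0.20, adjusted p = 0.0455), with a block for the replicate number (-0.20, adjusted p = 0.0425) and on the batch-corrected values (-0.23, adjusted p = 0.0136).

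Cxcl14, a chemokine made by epithelial and stromal cells at rest, had the largest fall by day 7. It was at 129 and 132 CPM in wild type and at 85.6 and 76.2 in knockout at day 0, and at 18.9 and 21.7 against 33.8 and 37.0 at day 7. Every library of day 7 was below every library of day 0, and the genotypes changed order between the days. The change was -2.69 ± 0.14 on the log2 scale in wild type (adjusted p = 7.77e-07), which is 6.45-fold lower, and -1.19 ± 0.13 in knockout (adjusted p = 4.72e-05), which is 2.29-fold lower. After 21 days it was back at 88.1 and 83.9 CPM (labelled wild type) and 81.1 and 105 (labelled knockout), 1.74 ± 0.09 above day 7 (adjusted p = 5.12e-07). Its value against day 0 was -0.20 ± 0.09 (adjusted p = 0.0949), and -0.32 (adjusted p = 0.0146) without the 2 libraries.

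Il6, which activates the JAK and STAT pathway and drives proliferation of muscle precursors in injured muscle, showed small changes. It was at 67.2 and 49.0 CPM in wild type and at 49.9 and 46.4 in knockout at day 0, and at 53.3 and 61.2 against 88.0 and 74.3 at day 7. The knockout libraries of day 7 lay above all other libraries of days 0 and 7. In wild type the value was -0.02 ± 0.22 on the log2 scale (adjusted p = 0.947), with overlapping libraries. In knockout it rose by 0.75 ± 0.22 (adjusted p = 0.0161), but this call was lost without knockout replicate 1 of day 0 (0.81, adjusted p = 0.0582), without knockout replicate 2 of day 0 (0.67, adjusted p = 0.105) and without knockout replicate 1 of day 7 (0.62, adjusted p = 0.0967). By day 21 Il6 stood at 58.4 and 48.7 CPM (labelled wild type) and 48.9 and 76.7 (labelled knockout), and neither comparison passed the test (-0.23 ± 0.15 against day 7, adjusted p = 0.221, and 0.13 ± 0.15 against day 0, adjusted p = 0.513). Without the 2 libraries the value against day 7 was -0.46 and passed (adjusted p = 0.0196).

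From day 7 to day 21, 6 of the 10 genes changed, 5 upward (Ccl2, Ccl7, Ccl11, Cxcl1 and Cxcl14) and 1 downward (Ccl8), where 56.8% of all genes were called, 28.4% in each direction. The fold change in this comparison sets the mean of the 4 libraries of day 21 against that of the 4 of day 7, whatever their genotype label, while the spread behind its p-values is taken within the labelled groups. Against day 0, 5 of the 8 genes that could be tested were higher at day 21 (Ccl8, Ccl11, Cxcl1, Cxcl5 and Cxcl10) and none was lower, where 45.9% of all genes were called, 25.0% as higher and 20.8% as lower. Without the 2 libraries that Sesn2 put against their label, Ccl11, Cxcl1 and Cxcl14 rose by 1.92, 1.03 and 1.64 from day 7 (log2 scale). In the same fit Ccl11, Cxcl1, Cxcl5 and Cxcl10 were 0.72, 0.60, 2.00 and 1.48 higher than at day 0. Markers of other cell types moved between day 7 and day 21 too. The 7 tenocyte markers (tendon cells) summed to 7501 to 9606 CPM at day 7 and to 9673 to 28960 at day 21, where 5 of the 7 rose and none fell. The lowest sum of day 21 is that of the library labelled wild-type replicate 2, against 24550, 28370 and 28960 CPM in the other 3, and its sum of fibro-adipogenic markers was the lowest too, at 11110 against 17660 to 20050. It is 1 of the 2 day 21 libraries kept when those that Sesn2 put against their label are left out. Of the 9 mural cell markers, 6 rose and 2 fell, with sums of 3480 to 5210 CPM and 5634 to 7674, and all 6 Schwann cell markers rose, with sums of 312 to 471 and 855 to 1337 CPM. No marker of these lists was at 0, and their part in the changes of the members was not tested. In the fit without the 2 libraries each day 21 group is 1 library, which is assumed to vary like the other groups.

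Between the genotypes, the values are a description, since the group was chosen from them. At day 0 the knockout was lower by 2.11 on the log2 scale for Ccl7 (log2 fold change -2.11 ± 0.15, 4.32-fold lower) and by 1.75 for Ccl2 (-1.75 ± 0.12, 3.37-fold lower). Cxcl10 followed at -1.44 ± 0.40, Cxcl1 at -1.03 ± 0.11, Cxcl14 at -0.69 ± 0.13, Ccl8 at -0.62 ± 0.48 and Ccl11 at -0.48 ± 0.20. Il6 at -0.27 ± 0.22 and Cxcl5 at 0.39 ± 0.48 overlapped between the genotypes, and Cxcl12 was higher in knockout at 0.25 ± 0.11. The libraries did not overlap for 8 of the 10 genes, 7 lower and 1 higher in knockout, beside 75.1% of all genes tested. The 10 stem cell markers summed to 2592 and 2593 CPM in wild type at day 0 against 2241 and 2283 in knockout. Over these markers the median log2 fold change of knockout over wild type was -0.67, beside 0.002 over all genes. Means were 25.8 against 12 CPM for Pax7 and 768 against 438 for Chodl. Itga7 (183 against 194), Musk (23.7 against 29.6) and Des (779 against 1010) had higher means in knockout. The mural cell list summed to 9156 to 9235 CPM in wild type and 14080 to 14500 in knockout, and the 6 red blood cell genes to 879 to 885 and 193 to 204. The part of these in the day 0 differences was not tested.

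At day 7 the same difference had the opposite sign for Ccl2 (0.62 ± 0.11), Ccl7 (0.33 ± 0.14), Ccl8 (2.65 ± 0.30, 6.27-fold higher in knockout) and Cxcl14 (0.80 ± 0.13), each without overlap in CPM on both days. In TPM the Ccl8 libraries of day 0 overlapped, with 3.27 and 1.87 for wild type against 1.92 and 1.45 for knockout. Cxcl12 was at 0.73 ± 0.11, Cxcl5 at 0.73 ± 0.41 and Il6 at 0.50 ± 0.22, and Cxcl10 stayed lower in knockout at -0.41 ± 0.38. Cxcl1 (0.07 ± 0.11) and Ccl11 (0.11 ± 0.20) overlapped. The libraries did not overlap for 8 of the 10 genes, 7 higher and 1 lower in knockout, beside 47.4% of all genes. Marker sums differed as well at day 7, with 3480 and 3507 CPM in wild type and 5071 and 5210 in knockout for the mural list, 312 and 335.5 against 371 and 471 for the Schwann list, and 5614 and 5771 against 6299 and 7142 for the fibro-adipogenic list, and their part was not tested. The fibro-adipogenic difference lay mostly in Dcn (2610 against 3170 CPM on average) and Gsn (1620 against 2160). Ly6a (23.4 against 19.6), Pi16 (50.3 against 15.9) and Mfap5 (573 against 370) had lower means in knockout. By label at day 21 the values ran from -0.55 ± 0.38 for Cxcl10 to 1.29 ± 0.36 for Ccl8, and 5 of the 10 genes did not overlap, beside 38.0% of all genes. Single libraries moved both: without knockout replicate 1 the value was -1.55 for Cxcl10 and 0.79 for Ccl8, and without knockout replicate 2 that of Cxcl10 was 0.03. Without the 2 libraries that Sesn2 put against their label, the day 21 values were 0.13 for Ccl2, 0.14 for Ccl7 and 1.36 for Ccl8, and Cxcl10 stood at 0.19.

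**Figure D4:**
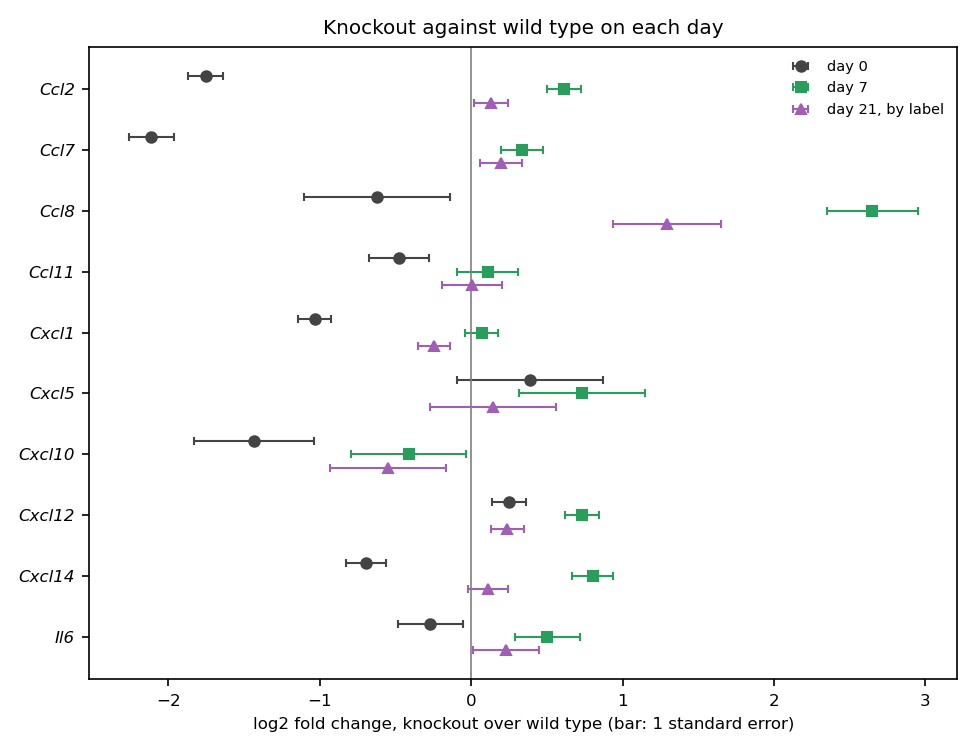
Log2 fold change of knockout over wild type for each gene on the horizontal axis, at day 0 (black circles), day 7 (green squares) and day 21 by label (purple triangles), with bars of 1 standard error. Ccl2 and Ccl7 lie at -1.75 and -2.11 at day 0 and right of 0 on both later days, and Ccl8 reaches 2.65 at day 7.

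In the following, CPM are means with the SD of 2 libraries. Among the 28 other chemokine ligands, 19 passed the filter. By day 7, 6 rose and 3 fell in wild type, and 10 rose and 2 fell in knockout. Ccl12 and Cxcl3 are among the genes called higher in both genotypes, but they had no counts at day 0 and passed the filter through later groups alone. Of all genes, 25.8% were called higher and 21.2% lower in wild type, against 24.7% and 22.2% in knockout. Cxcl9, which like Cxcl10 binds Cxcr3, rose from 4.86 ± 0.50 to 37.4 ± 5.1 CPM in wild type (log2 fold change 2.94 ± 0.23, adjusted p = 7.13e-06). In knockout it rose from 0.775 ± 0.107 to 28.9 ± 3.7 CPM (log2 fold change 5.21 ± 0.28, adjusted p = 5.46e-07). Cxcl16, a membrane-bound ligand, rose by 1.29 ± 0.17 in wild type and 1.74 ± 0.18 in knockout on the log2 scale (adjusted p = 0.000186 and 2.69e-05). Ccl19, a ligand of Ccr7, fell by day 7 in both genotypes. Its log2 fold change was -2.86 ± 0.43 in wild type (adjusted p = 0.000435) and -2.25 ± 0.44 in knockout (adjusted p = 0.00178). It was 2.48 ± 0.31 higher at day 21 than at day 7 (adjusted p = 6.67e-05). Without the 2 libraries that Sesn2 put against their label it was 2.69 higher.

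Ccl12, the neighbour of Ccl8 on chromosome 11, had no counts in any library of day 0. Its day 7 values were 1.24 and 1.66 CPM in wild type against 7.62 and 5.81 in knockout. Against a floor of 3 counts per library this is at least 16.8-fold higher in wild type and at least 66.6-fold higher in knockout. By day 21 it was at 0.126 CPM or less in all 4 libraries. Ccl8 and Ccl12 thus both peaked at day 7, with the knockout libraries above the wild-type ones, while Ccl2, Ccl7 and Ccl11 of the same stretch did not peak at day 7 in wild type.

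Of 22 chemokine receptors, 15 passed the filter. By day 7, 5 rose and 2 fell in wild type and 3 rose and 1 fell in knockout, beside 25.8% higher and 21.2% lower of all genes in wild type and 24.7% and 22.2% in knockout. Ccr7, called higher in both genotypes, and Cxcr6, called higher in knockout, had no counts at day 0 and passed the filter through later groups alone. Cxcr4, the signalling receptor of Cxcl12, rose from 18.8 ± 1.5 to 38.3 ± 3.5 CPM in wild type (log2 fold change 1.03 ± 0.20, adjusted p = 0.00172) and from 9.89 ± 0.077 to 24.1 ± 3.3 CPM in knockout (1.28 ± 0.20, adjusted p = 0.000463). Ackr3, the scavenger receptor that takes up Cxcl12, fell at the same time, from 212 ± 7.3 to 73.3 ± 1.1 CPM in wild type (-1.53 ± 0.11, adjusted p = 3.54e-06) and from 132 ± 0.66 to 61.0 ± 2.8 CPM in knockout (-1.11 ± 0.11, adjusted p = 1.71e-05). From day 7 to day 21 Ackr3 rose by 1.75 ± 0.08 (adjusted p = 1.67e-07) and Cxcr4 fell by 0.94 (log2 fold change -0.94 ± 0.14, adjusted p = 0.000222). Without the 2 libraries these values were 1.84 and -0.79 (adjusted p = 6.84e-08 and 0.000511). Ccr2, the receptor of Ccl2 and Ccl7 on monocytes, rose in wild type from 0 and 0.237 CPM to 1.10 and 3.52 CPM by day 7 (4.19 ± 1.13, adjusted p = 0.0117). In knockout it went from 0.122 and 0.074 CPM to 1.00 and 0.390, which did not pass (2.78 ± 1.16, adjusted p = 0.0713). With at most 0.237 CPM at day 0, Ccr2 also passed the filter through later groups alone. Cxcr2, the receptor of Cxcl1 and Cxcl5, was low before injury, with 3.14 CPM in wild type against 1.09 in knockout.

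Of the 20 genes of the IL-6 family and its signalling, all 20 were tested. By day 7, 3 rose and 8 fell in wild type and 3 rose and 10 fell in knockout, and from day 7 to day 21, 13 rose and 2 fell, with medians of -0.27, -0.44 and 0.84. Of all genes, 25.8% rose and 21.2% fell in wild type, 24.7% and 22.2% in knockout, and 28.4% each way from day 7 to day 21. Tyk2 counts among the genes that fell in knockout, but it was detected mostly in the knockout libraries of day 0. Its mean there was 0.871 TPM, and at most 0.145 in the other groups. Its place among the genes tested thus rests largely on the group it fell from. Without the 2 libraries that Sesn2 put against their label, the median of the 20 genes from day 7 to day 21 was 0.65. Cntf, a neurotrophic member of the family made by Schwann cells, fell from 29.5 ± 2.0 to 0.848 ± 0.117 CPM in wild type (log2 fold change -5.12 ± 0.48, adjusted p = 2.71e-05) and from 28.6 ± 1.8 to 0.225 ± 0.141 in knockout (-7.03 ± 0.57, adjusted p = 8.69e-06). The Schwann cell markers given above fell alongside it, and their part was not tested. Socs3, the feedback inhibitor of the pathway, fell in wild type by 0.27 (log2 fold change -0.27 ± 0.10, adjusted p = 0.0433) and in knockout from 1127 ± 41 to 529.7 ± 52.6 CPM (-1.09 ± 0.10, adjusted p = 1.27e-05). Il6st, which encodes gp130, rose from day 7 to day 21 by 1.22 ± 0.09 (adjusted p = 1.91e-06), and Socs3 by 0.96 ± 0.07 (adjusted p = 2.29e-06), or by 1.12 and 0.92 without the 2 libraries (adjusted p = 3.36e-06 and 5.49e-06).

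Of the 24 NF-kB subunits, regulators and targets, 4 rose and 11 fell by day 7 in wild type, and 4 rose and 8 fell in knockout, with medians of -0.13 and 0.07, where 25.8% and 21.2% of all genes rose and fell in wild type and 24.7% and 22.2% in knockout. From day 7 to day 21, 16 rose and 3 fell with a median of 0.55, beside 28.4% of all genes each way. This median was 0.47 without the 2 libraries. Nfkbia, the inhibitor that NF-kB itself induces, went from 1326 ± 48.5 to 450.0 ± 8.4 CPM in wild type (-1.56 ± 0.11, adjusted p = 3.15e-06) and from 972 ± 9.4 to 556.5 ± 7.7 in knockout (-0.80 ± 0.11, adjusted p = 0.000136). Between day 7 and day 21 Nfkbia rose by 1.25 ± 0.07 (adjusted p = 7.97e-07) and Tnfaip3, another feedback inhibitor, by 2.10 ± 0.13 (adjusted p = 9.6e-07), or by 1.37 and 2.15 without the 2 libraries (adjusted p = 1.29e-07 and 3.93e-06).

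Of 6 enzymes that cleave chemokines, 5 were tested, and 4 rose by day 7 in each genotype, with medians of 1.81 in wild type and 1.99 in knockout, beside 25.8% and 24.7% of all genes called higher. The other, Dpp4, a peptidase that truncates several chemokines, fell in wild type (-1.15 ± 0.41, adjusted p = 0.0489), where 21.2% of all genes fell, and did not pass in knockout (-0.66 ± 0.41, adjusted p = 0.225). Mmp3, a matrix protease, rose from 6.58 ± 0.65 to 40.1 ± 4.3 CPM in wild type (2.61 ± 0.21, adjusted p = 8.1e-06) and from 4.12 ± 0.37 to 147 ± 49 in knockout (5.16 ± 0.24, adjusted p = 2.7e-07). Mmp14, a membrane-bound protease, rose by 1.81 ± 0.08 and 1.99 ± 0.08 (adjusted p = 4.83e-07 and 1.98e-07). Mmp9 rose in wild type from 0.0312 and 0 CPM to 7.87 and 2.95 CPM (adjusted p = 0.00135), from at most 1 count per library.

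The genes outside the group whose log2 CPM over the 12 libraries was most like that of Ccl2 were Plaur (r = 0.944), the receptor for urokinase, 3 unnamed gene models with identical values (Gm12625, Gm12627 and Gm12621, r = 0.938, at most 0.479 CPM on average) and Ret (r = 0.934), a receptor tyrosine kinase. Plaur measured 56.6 CPM in wild type before injury against 29.5 in knockout, with means of 66.3 at day 7 and 63.9 at day 21. For Ccl7 they were Cxcl2 (r = 0.952), a ligand of Cxcr2, the same 3 gene models (r = 0.943) and Zfp90 (r = 0.936). Cxcl2 was at 6.87 and 5.62 CPM in wild type and at 1.28 and 1.03 in knockout at day 0, at 4.26 and 6.96 against 5.11 and 3.77 at day 7, and at 8.06 to 9.60 at day 21. These are descriptions over libraries that share groups.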

How the data were processed

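Sequencing of RNA from 12 libraries in 6 groups was used (cDNA by the SMART-Seq v4 protocol, Nextera XT libraries, single-end reads of 76 bases, per the labels' protocols). The authors deposited a table of estimated counts per gene and a table of TPM. The submitters' processing notes list kallisto 0.46.1, mm10 and GRCm38.p6, without a role. A further deposited table holds regularised log2 values of 21782 genes, corrected by the authors for a batch that is not named, and served as an alternative only.

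Estimated counts were rounded, filtered with filterByExpr and scaled by TMM, and 1 mean per group was fitted by the robust quasi-likelihood method of edgeR 4.0.16 (R 4.3.3). Standard errors (±) are the fold change over the root of F, unless an SD is named; p-values were adjusted over 15890 genes. With 2 libraries per group, all groups share one estimate of spread. Log2 CPM used a prior count of 2. Alternatives used DESeq2 1.42.0, limma 3.58.1 on log2(TPM + 1) or with 0.1, other filters, a block for the replicate number, days 0 and 7 alone, each library left out, and, chosen after seeing the data, the fit without the 2 day 21 libraries whose Sesn2 goes against the label. Scripts were tested on simulated data. Libraries of a group differed beyond sampling noise.

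The members and gene lists were chosen with earlier results of these data known. Of each pathway list at most 4 called genes with the smallest adjusted p per comparison could be named; Art3 was added for its overlap with Cxcl10. For Ccl2 and Ccl7 the 5 most correlated genes are named. Of the identifiers, 29729 of 30154 were in GENCODE M21. Similar transcripts were sought with BLAST 2.17.0, and figures drawn with matplotlib 3.10.9.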

Additional observations from a re-analysis of the deposited data

Results flagged for a closer look

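Effects under the same contrast ran in opposite directions, with, in CPM, every library of one group on one side and every library of the other on the opposite side, for 4 genes. The difference was not tested, because the genes were chosen from this contrast. For Ccl2, the log2 fold change of knockout over wild type was -1.75 at day 0 and 0.62 at day 7, and that of day 7 over day 0 was 2.09 in knockout and -0.28 in wild type. For Ccl7, these values were -2.11, 0.33, 2.01 and -0.44. Knockout over wild type was -0.62 at day 0 and 2.65 at day 7 for Ccl8, where the day 0 value ran from -0.97 to -0.19 when single libraries were left out, rests on 7 to 19 counts per library, and the genotypes overlap at day 0 in TPM and in the batch-corrected values, and -0.69 and 0.80 for Cxcl14.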

How the results depend on the processing

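With 2 libraries per group, counts over all genes in the genotype comparisons moved with the processing, and the cause was not tested. For the genotype at day 7, 280 genes were called, against 787 with DESeq2, 138, 110 and 101 with limma on log2 TPM (pseudocount 1, pseudocount 0.1 and no filter), 825 on the batch-corrected values, 1169 with days 0 and 7 alone and 1136 without the 2 day 21 libraries whose Sesn2 goes against the label. At day 21 by label, 2 genes were called, against 471 with DESeq2, 57 with no filter on low counts, 23 with at least 10 counts in every library, 0 (pseudocount 0.1) and 14 (no filter) with limma on TPM, 176 on the batch-corrected values and 1200 without the 2 libraries. For the interaction at day 7, 2141 genes were called, against 1356, 1334 and 1096 with limma on TPM, 3887 with days 0 and 7 alone and 3759 without the 2 libraries. Leaving out 1 library gave 1667 to 5166 genes for the genotype at day 0 (main 4356), 15 to 619 at day 7, 0 to 865 at day 21 and 582 to 2852 for the interaction. Of the 8 genes tested at day 21 against day 0, 5 were called, and 3 of the 6 left with at least 10 counts in every library, a filter that removes Ccl8 and Cxcl5. No direction of a called value reversed. The replicate number as a block left 1 call for the genotype at day 21. Over 15 pairs of groups, the correlation of same-numbered deviations was -0.143 to 0.07, which showed no pairing by number. It cannot exclude such a pairing, because differences particular to single groups could hide it. Low counts of Ccl8 and Cxcl5 at day 0 limit the precision of their folds.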
